A study of Homo sapiens with 22 samples.

Results

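The cytosolic ribosomal protein genes were the 77 genes whose symbol follows the RPL and RPS naming pattern or is RPLP0, RPLP1, RPLP2 or RPSA, taken from 60664 genes in the count files. They comprised 46 genes of the large subunit and 31 of the small subunit. RNA had been sequenced from IMR90 cells, an established line of human lung fibroblasts, in 6 groups and 22 libraries. All cells were transfected with siRNA at 10 nM every 24 h for 72 h, either a nontargeting control (NTC) or a pool against MSK2 (siMSK2), and all were starved of serum for 24 h. They were then given phosphate-buffered saline (PBS, 4 NTC and 4 siMSK2 libraries), 750 pM EGF for 30 min (4 and 4) or the same EGF for 60 min (3 and 3). The labels give the PBS groups a time of 60 min, so no PBS group of 30 min entered any comparison. MSK2 was targeted with 1 pool of siRNAs, and loss of MSK2 cannot be told apart from other effects of that pool. The labels do not say whether replicates came from separate cultures, and the P values then measure only the spread between these libraries.

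Each ribosome is built from a small and a large subunit, and nearly every cytosolic ribosomal protein is present as 1 copy per ribosome, so cells keep the output of these genes in balance. Most of their mRNAs begin with a cytosine followed by a run of pyrimidines, the 5′ terminal oligopyrimidine (TOP) motif, through which mTORC1 and the RNA-binding protein LARP1 govern their translation and stability. Many of the genes also carry small nucleolar RNAs (snoRNAs) in their introns. MSK2, encoded by RPS6KA4, is a nuclear kinase activated by ERK and p38 that phosphorylates histone H3 and CREB. Its gene symbol recalls its kinship with the kinases of ribosomal protein S6, but it is not a component of the ribosome.

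The first bases of 10 members named in the results below are shown, because the TOP motif is the sequence feature that most of these mRNAs share. Each run holds the 10 bases before and the 20 bases from the RefSeq start site on GRCh38.p14, 5′ to 3′ on the gene's strand. Capitals mark the run of C and T that begins with a C at the start site (at the second base for RPS28).
RPS28: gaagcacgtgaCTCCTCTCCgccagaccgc
RPS27: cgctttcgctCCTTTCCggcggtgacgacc
RPL3: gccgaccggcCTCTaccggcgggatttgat
RPL10A: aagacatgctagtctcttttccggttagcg
RPL12: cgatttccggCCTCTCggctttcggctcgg
RPS19: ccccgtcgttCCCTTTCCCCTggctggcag
RPS12: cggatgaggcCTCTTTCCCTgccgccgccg
RPL41: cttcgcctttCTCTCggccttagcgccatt
RPLP0: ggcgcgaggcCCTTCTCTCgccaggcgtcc
RPS6: gaagttggccCTCTTTTCCgtggcgcctcg
These windows lie at chr19:8321486-8321515 for RPS28, chr1:153990752-153990781 for RPS27, chr6:35468391-35468420 for RPL10A, chr19:41860245-41860274 for RPS19, chr6:132814559-132814588 for RPS12 and chr12:56116623-56116652 for RPL41, all on the plus strand. Those on the minus strand are chr22:39319604-39319633 for RPL3, chr9:127451387-127451416 for RPL12, chr12:120201092-120201121 for RPLP0 and chr9:19380217-19380246 for RPS6. RPL3 has a run of 4 at the annotated start, and RPL10A has none that begins there. In RPL10A a longer run of C and T begins with a T at the third base and is not marked.

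Of the 77 members, 62 had a start site in the RefSeq table. A start with C and at least 5 pyrimidines in a row was found for 46 of these 62 (74.2%), against 5.14% of the 27305 genes in the table. Other motifs were counted on both strands of the 300 bases from 250 before to 50 after the start. CCGGAAG, the core bound by ETS factors, was found in 35.5% of the members and 12.2% of all genes. TGACGT, the core of the cAMP response element to which CREB binds, was found in 21.0% and 9.64%, and the full element TGACGTCA, which contains it, in 4.84% and 2.25%. AAGATGGC, bound by YY1, was found in 9.68% and 3.52%, the E-box CACGTG in 6.45% and 8.78% and the TATA box TATAAA in 8.07% and 14.0%. The promoter of RPS28 held TGACGT, the YY1 motif, CACGTG and TATAAA, and that of RPL3 held the full TGACGTCA, CCGGAAG and TATAAA. These matches describe the letters in the windows, and binding was not measured here.

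The members lie on 21 chromosomes, with 12 of them on chromosome 19. In the annotation of GRCh38, 28 members contain 60 snoRNA genes. The transcript of 55 members shares no bases with another gene in the files, and in 7 members over 50% of its bases are shared. The members differed widely in level per base of the annotated canonical transcript. On the scale of RPKM (reads scaled by the length of the canonical transcript and by library size), scaled by TMM and averaged over the 22 libraries, RPS18 was highest at 833, followed by RPL8 at 581 and RPL19 at 561. The median of all 77 was 195. RPLP0, a stalk protein used as a reference gene, stood at 352 RPKM, RPS6, the substrate of the S6 kinases, at 376 and RPS27, a zinc finger protein of the small subunit, at 436. RPS28, a small protein at the mRNA exit of the small subunit, stood at 28.3 RPKM, calculated on a canonical transcript of 1330 bases of which 27.4% overlap the neighboring gene KANK3. These means span both siRNAs. By group, RPS28 averaged 39.5 to 51.0 RPKM with control siRNA and 9.66 to 11.5 RPKM with MSK2 siRNA. RPS27 averaged 433 to 625 RPKM and 282 to 356 RPKM.

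**Figure D1:**
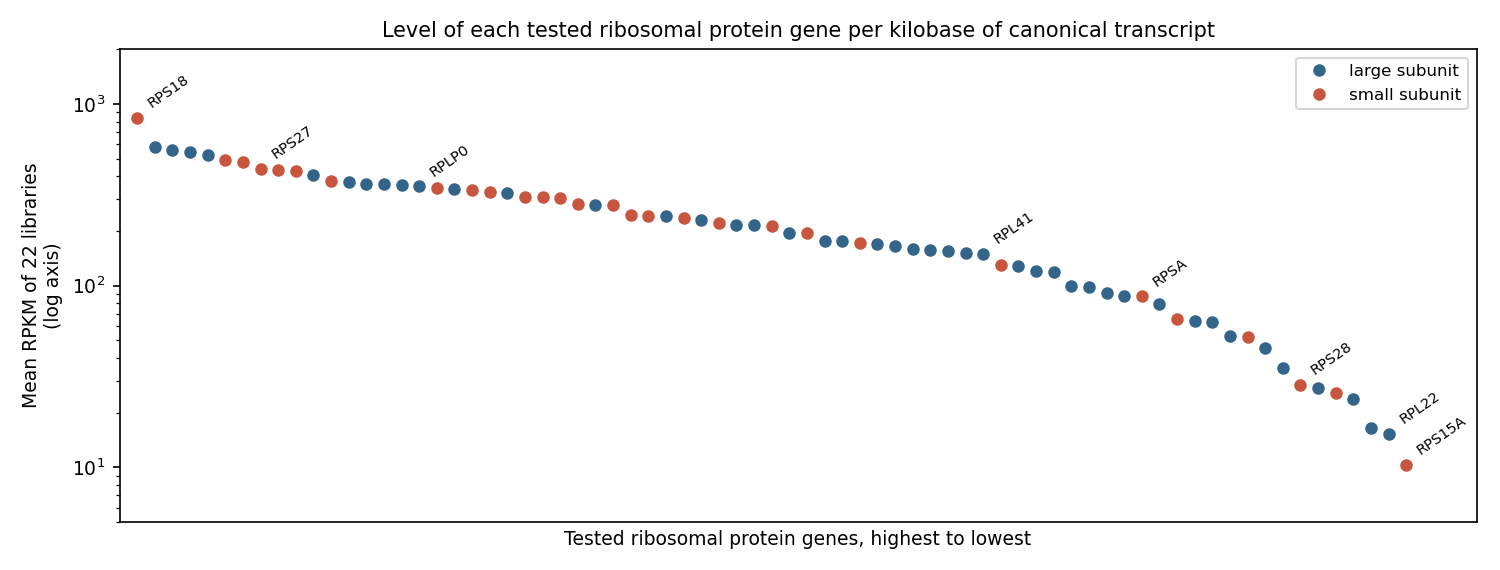
Mean level of each of the 73 tested ribosomal protein genes over 22 libraries, in RPKM on a log axis, ordered from highest to lowest and colored by subunit, with 8 genes labelled. RPS18 stands highest at 833 RPKM and RPS15A lowest at 10.3 RPKM, an order that depends on the annotated length of the canonical transcripts.

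Of the 77 members, 73 had more than 10 CPM (counts scaled by library size) in at least 2 libraries and were tested. The remaining 4 had 1 to 87 counts in any library. RPL17, RPL36A and RPS10 were among them, at 5.19, 2.34 and 1.30 RPKM. Their canonical transcripts share 96.9%, 43.8% and 84.0% of their bases with a read-through transcript (RPL17-C18orf32, RPL36A-HNRNPH2 and RPS10-NUDT3), whose own rows held 0 counts in every library. Reads that fell on more than 1 gene were set aside in the files as ambiguous, 8.08 to 8.75% of reads per library and their part in these low values was not tested. Pseudogenes named after members added 1.84 to 2.37% to the members' counts. Reads that aligned to more than 1 place, 6.50 to 8.18% of reads per library, were set aside too. How many of them came from members or their pseudogenes was not tested.

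The libraries held 7893209 to 22244216 counts on genes. RPS6KA4 was lower in each siMSK2 library than in any NTC library, with 11.1 to 26.9 CPM over the 11 NTC libraries and 1.74 to 3.77 CPM over the 11 siMSK2 libraries. Its log2 fold change was −3.05 after PBS, −2.80 at 30 min and −2.86 at 60 min. In response to EGF, the 9 tested immediate-early genes rose at both times with either siRNA. All 11 fibroblast markers were expressed, with a summed level of 47955 to 78493 CPM. At 30 min they summed to 52632 to 55190 CPM with control siRNA and 66503 to 78493 CPM with MSK2 siRNA, at 60 min to 56706 to 61477 CPM and 65364 to 70412 CPM, and after PBS to 47955 to 67121 CPM and 66104 to 71012 CPM. The groups did not overlap at either time of EGF. Leukocyte markers summed to 0.0963 to 1.41 CPM, and of 6 epithelial and 6 endothelial markers 2 and 1 averaged over 10 CPM. The endothelial markers summed to 51.8 to 66.1 CPM over the NTC libraries and 16.9 to 28.3 CPM over the siMSK2 libraries, through TEK. The part of these markers in the results below was not tested.

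The ribosomal protein genes together took 1.19 to 1.96% of the counts on genes in a library. With control siRNA, the share was 1.63, 1.70, 1.58 and 1.75% after PBS, 1.73, 1.91, 1.96 and 1.65% at 30 min of EGF and 1.40, 1.52 and 1.40% at 60 min. With MSK2 siRNA, it was 1.75, 1.51, 1.62 and 1.42% after PBS, 1.19, 1.30, 1.58 and 1.41% at 30 min and 1.33, 1.82 and 1.55% at 60 min. At 30 min, all 4 NTC libraries were above all 4 siMSK2 libraries. After PBS and at 60 min, the NTC and siMSK2 libraries overlapped. With control siRNA, all 3 libraries of 60 min were below all PBS libraries, and no such separation was seen with MSK2 siRNA. In bulk RNA, less RNA per cell and fewer cells that express these genes cannot be told apart.

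**Figure D2:**
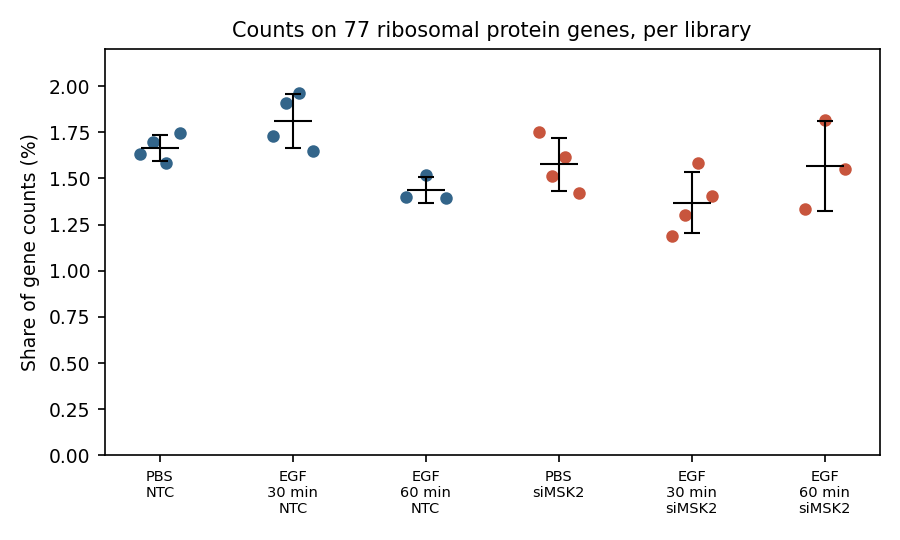
Share of the counts on genes, in percent, that fell on the 77 ribosomal protein genes, with a point per library, NTC in blue and siMSK2 in red, and bars for the mean and SD of each group. The libraries of EGF for 30 min separate by siRNA (1.65 to 1.96% against 1.19 to 1.58%), whereas those of the other treatments overlap.

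MSK2 siRNA was compared with control siRNA to ask which genes differ between them after PBS and at each time of EGF. At 30 min of EGF, 69 of the 73 tested members were lower with MSK2 siRNA and none was higher at adjusted P under 0.05. The same rule called 15.2% of all 9770 tested genes lower. The median log2 fold change of the members was −0.44, while the median over all tested genes was 0.01. Members of both subunits fell, 42 of 44 in the large subunit (median −0.44) and 27 of 29 in the small subunit (median −0.44). The remaining 4 members, RPL39, RPL41, RPS19 and RPS25, had log2 fold changes of −0.36, −0.21, −0.21 and −0.31. None of the 73 had a positive value. For 36 of the 73, all siMSK2 libraries were below all NTC libraries, and this separation was found for 15.3% of all tested genes. The count of 69 was 67 to 71 with other tools, scalings and filters and 48 to 72 when 1 library was left out, the smallest without siMSK2 replicate 1.

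After PBS, 8 members fell and none rose, against 12.6% of all tested genes lower and 12.2% higher. The 8 were RPS28, RPS27, RPL3, RPL10A, RPL12, RPS2, RPL10 and RPL4. The number was 5 without NTC replicate 1 or 2 or siMSK2 replicate 2 or 3, and 4 without siMSK2 replicate 4. The median of the members was −0.07, with 58 negative and 15 positive values, and it was −0.13 without siMSK2 replicate 1 and −0.02 without siMSK2 replicate 4. DESeq2 and edgeR's exact test also called no member higher after PBS, and no member was higher at an unadjusted P under 0.05. At 60 min of EGF, 3 members rose (RPS19, RPS12 and RPL41) and 2 fell (RPS28 and RPL3), against 9.37% of all genes higher and 10.1% lower. The median was 0.13, with 58 positive and 15 negative values, and it was 0.02 without siMSK2 replicate 2 and 0.24 without siMSK2 replicate 1. When 1 library was left out, the number that rose at 60 min ranged from 0 to 12. It was 0 without siMSK2 replicate 2 and without NTC replicates 1 or 3, 1 without siMSK2 replicate 3, and 12 without siMSK2 replicate 1. The number that fell at 60 min was 1 without siMSK2 replicate 1 and 4 without siMSK2 replicate 2. The log2 fold changes at each time are set side by side in the plot of MSK2 against control siRNA.

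**Figure D3:**
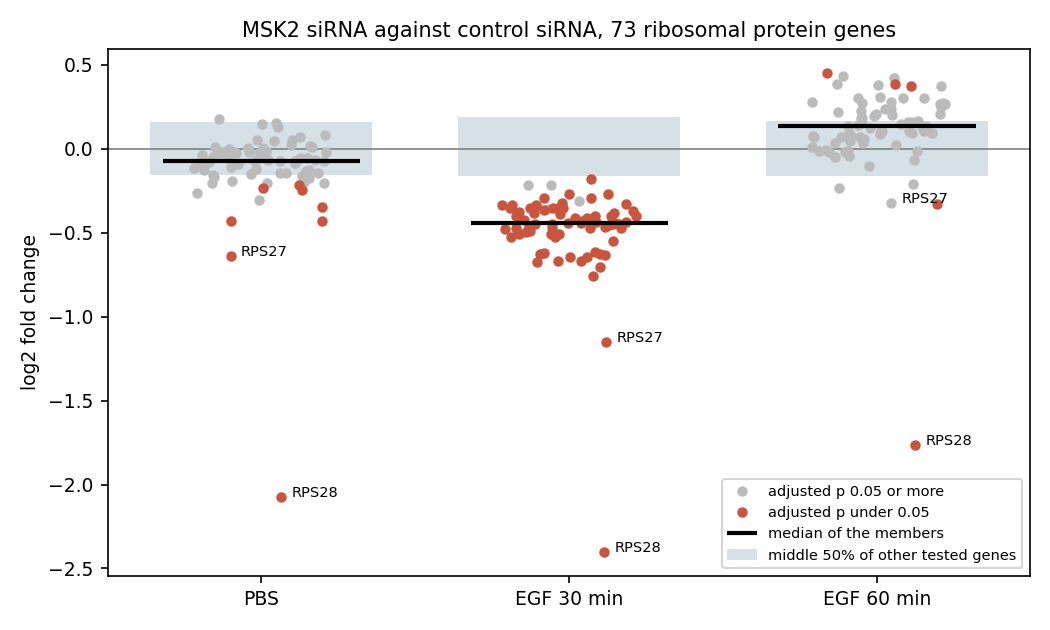
Log2 fold change of each of 73 ribosomal protein genes, MSK2 siRNA against control siRNA, after PBS and at 30 and 60 min of EGF, with a point per gene, red where adjusted P was under 0.05, the members' median as a black line and the middle 50% of the other tested genes as a blue band. At 30 min all 73 points lie below 0, and RPS28 lies far below the others in all 3 comparisons.

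RPS28 was the member that fell furthest at every time. With control siRNA it had 63.2, 63.9, 61.1 and 56.1 CPM after PBS, 69.2, 67.5, 73.8 and 60.7 CPM at 30 min of EGF and 57.9, 53.3 and 46.5 CPM at 60 min. With MSK2 siRNA it had 20.2, 11.4, 14.3 and 12.5 CPM after PBS, 10.6, 12.8, 15 and 13 CPM at 30 min and 12.4, 18.3 and 15.4 CPM at 60 min. The highest siMSK2 library was below the lowest NTC library at every time. The log2 fold change was −2.07 (SE 0.14, adjusted P = 5.28e-12) after PBS, −2.40 (SE 0.14, adjusted P = 3.03e-13) at 30 min and −1.77 (SE 0.16, adjusted P = 2.93e-09) at 60 min. Among all 9770 tested genes, ordered from the largest fall, RPS28 ranked 7, 6 and 12, close to the targeted gene, which ranked 2, 3 and 2. These calls held in every alternative run. The gene lies at chr19:8321158-8323340 on the plus strand, and the overlapping KANK3 held 1 to 18 counts per library. Rows of 5 pseudogenes of RPS28 held 13.8% of the counts on RPS28 and these rows together. The largest of them, RPS28P7, had 5.93 to 11.2 CPM over the NTC libraries and 0.852 to 2.79 CPM over the siMSK2 libraries, so its row was lower in the same libraries. Whether reads of RPS28 fell on these rows was not tested.

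RPS27 (chr1:153990762-153992155) fell by 0.64 on the log2 scale after PBS (SE 0.14, adjusted P = 0.00118) and by 1.15 at 30 min (SE 0.14, adjusted P = 5.11e-07). After PBS it had 214, 193, 163 and 209 CPM with control siRNA and 148, 116, 134 and 103 CPM with MSK2 siRNA. At 30 min it had 208, 236, 250.2 and 186 CPM with control siRNA and 88.0, 84.7, 124 and 99.9 CPM with MSK2 siRNA. The groups did not overlap at either time. At 60 min its levels of 143, 169 and 145 CPM overlapped with 94.0, 164 and 107 CPM, and its log2 fold change of −0.32 did not pass (SE 0.16, adjusted P = 0.183). RPS27L, a paralog whose product can take the place of RPS27 in the ribosome, moved the other way. It had 420.4, 501, 465 and 422 CPM after PBS with control siRNA and 613, 619, 627 and 516 CPM with MSK2 siRNA. RPS27L rose by 0.39 on the log2 scale after PBS (SE 0.10, adjusted P = 0.00572) and by 0.48 at 60 min (SE 0.12, adjusted P = 0.00466). At 30 min its log2 fold change was 0.09 (adjusted P = 0.524).

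RPL3, RPL10A and RPL12 are proteins of the large subunit, RPL3 reaching toward the peptidyl transferase center and RPL12 lying at the base of the stalk. RPL3 had 804, 820.3, 795 and 971 CPM after PBS with control siRNA and 647, 601, 593 and 673 CPM with MSK2 siRNA. At 30 min it had 844, 903, 811 and 945 CPM against 469, 553, 601 and 574 CPM, and at 60 min 749, 716 and 743 CPM against 504, 637 and 619.8 CPM. Its groups did not overlap at any of the 3 times, and RPL3 and RPS28 were the 2 members called lower at all of them. The log2 fold changes of RPL3 were −0.43 after PBS (adjusted P = 0.000230), −0.67 at 30 min (adjusted P = 3.95e-07) and −0.33 at 60 min (adjusted P = 0.0149). For RPL10A they were −0.43, −0.67 and −0.21, the last not passing (adjusted P = 0.186). RPL12 had −0.35 after PBS (adjusted P = 0.0260) and −0.76 at 30 min (adjusted P = 1.04e-05), but −0.02 at 60 min. The call of RPL3 at 60 min was lost without siMSK2 replicate 1 (−0.22, adjusted P = 0.116), and that of RPL12 after PBS without NTC replicate 1 (−0.33), NTC replicate 2 (−0.33) or siMSK2 replicate 4 (−0.26). RPS15A had −0.20 after PBS and fell by 0.70 at 30 min (adjusted P = 0.000448). By RPKM it was the lowest tested member, at 10.3 on a canonical transcript of 2203 bases. By mean CPM the lowest was RPL26, at 18.7.

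The members that rose with MSK2 siRNA at 60 min were RPS19, RPS12 and RPL41. RPS19, a protein of the head of the small subunit that is mutated in Diamond-Blackfan anemia, had 695, 774 and 652 CPM at 60 min with control siRNA and 790.0, 1197 and 914 CPM with MSK2 siRNA. Each siMSK2 library was above each NTC library, the highest being siMSK2 replicate 2, and RPS19 rose by 0.45 in log2 units (SE 0.13, adjusted P = 0.0144). RPS12 had 116, 124 and 111 CPM against 126, 178 and 154 CPM, a rise of 0.39 on the log2 scale (adjusted P = 0.0315). RPL41, the shortest ribosomal protein, had 80.0, 91.6 and 80.8 CPM against 90.7, 128 and 108 CPM, which overlapped, with 0.37 (adjusted P = 0.0291). These 3 calls were lost without NTC replicate 1 or 3 or without siMSK2 replicate 2, where the values of RPS19, RPS12 and RPL41 were 0.27, 0.26 and 0.24, and those of RPS12 and RPL41 also without siMSK2 replicate 3. At 30 min, RPS12 had been lower (−0.29, adjusted P = 0.0442), a call lost without NTC replicate 2 (−0.25) or 3 (−0.22) or siMSK2 replicate 1 (−0.22), 2 (−0.25) or 4 (−0.31), whereas RPS19 and RPL41 did not pass.

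**Figure D4:**
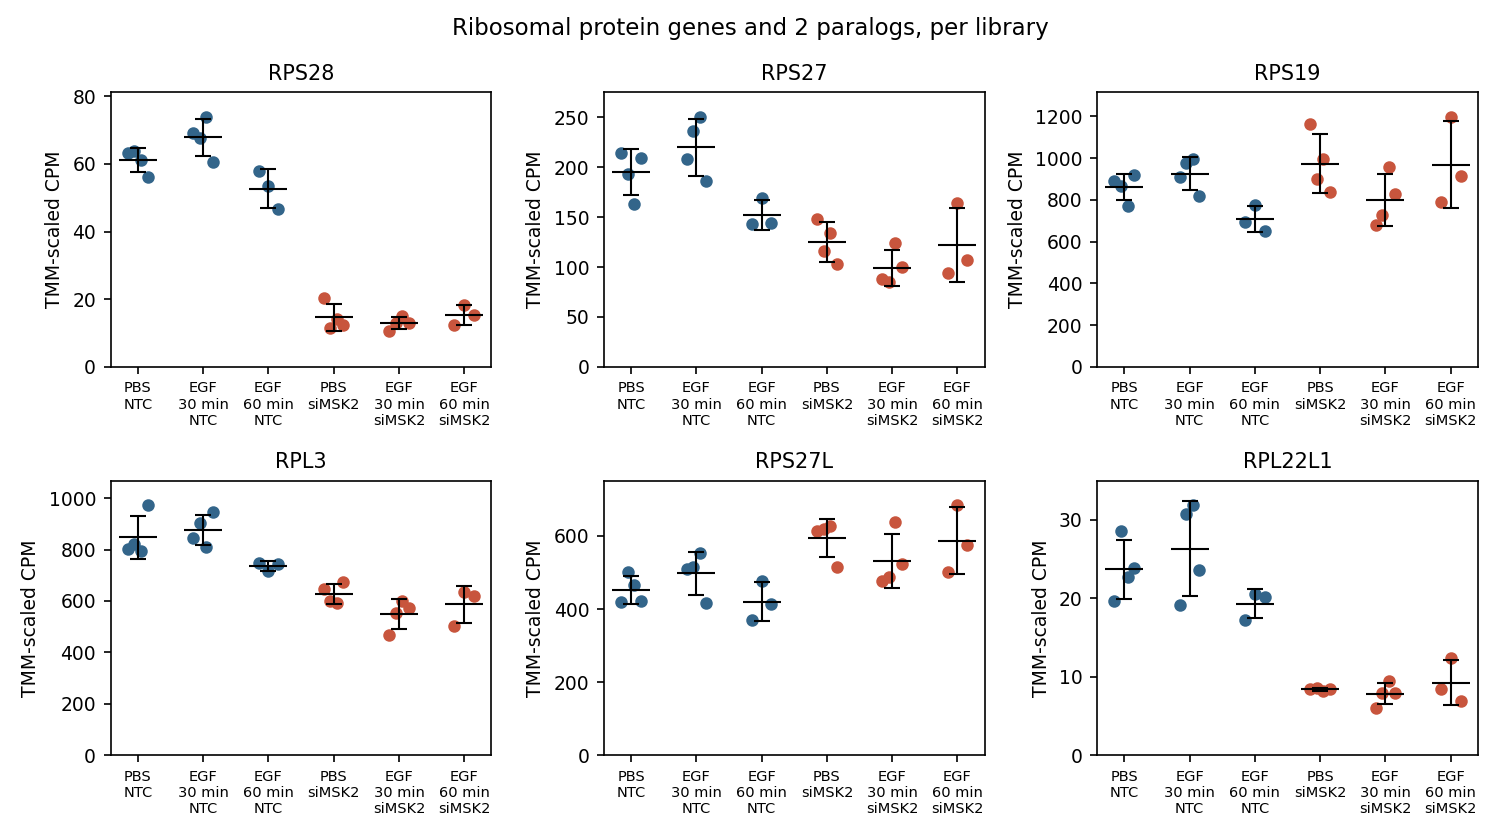
TMM-scaled CPM per library of RPS28, RPS27, RPS19, RPL3 and the paralogs RPS27L and RPL22L1, NTC in blue and siMSK2 in red, with the mean and SD of each group; each axis starts at 0. RPS28 and RPL22L1 are lower in every siMSK2 library than in any NTC library, and RPS27L is higher in the siMSK2 groups after PBS and at 60 min.

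The mRNAs of genes often used as references of this family moved with the rest at 30 min. RPLP0 had 387, 511, 480.4 and 426 CPM with control siRNA and 293, 337, 366 and 341 CPM with MSK2 siRNA, which did not overlap, with a change of −0.43 in log2 units (SE 0.08, adjusted P = 0.000198). RPS6 had 506, 663, 640.4 and 556 CPM against 378, 415, 501 and 445 CPM, and fell by 0.44 (SE 0.09, adjusted P = 0.000572). RPSA, also known as a laminin receptor, had −0.27 (adjusted P = 0.0123) and RPL22, which binds RNA outside the ribosome, −0.35 (adjusted P = 0.0131). Without siMSK2 replicate 1 these 2 calls were lost (−0.23 and −0.28), and without NTC replicate 3 that of RPSA was (−0.23). At the other times these 4 did not pass, with log2 fold changes of −0.17, −0.16, −0.07 and −0.09 after PBS and −0.02, 0.12, 0.15 and 0.07 at 60 min. RPL22L1, the paralog of RPL22, fell at all 3 times, by 1.49 after PBS (SE 0.17, adjusted P = 1.90e-07), by 1.75 at 30 min (SE 0.17, adjusted P = 1.08e-08) and by 1.05 at 60 min (SE 0.20, adjusted P = 0.000313). It had 17.2 to 31.8 CPM over the NTC libraries and 6.09 to 12.4 CPM over the siMSK2 libraries. Of the 8 tested paralogs and ribosomal proteins outside the naming pattern, 4 were lower at 30 min, RPL22L1, FAU (−0.42) and RPL26L1 (−0.36) among them. At that time 15.2% of all tested genes were lower. After PBS 1 of the 8 was lower and 1 higher, beside 12.6% and 12.2% of all genes. At 60 min 1 was lower and 1 higher, beside 10.1% and 9.37%. FAU encodes a ribosomal protein fused to a ubiquitin-like sequence. RPL36AL, RPL7L1 and RPL39L did not pass at any of the 3 times, with log2 fold changes of −0.24, −0.05 and −0.11 at 30 min. RPL3L and RPL10L were not tested.

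The order of the members was compared between times, which share no library. Between PBS and 30 min, the members' log2 fold changes had a Spearman rho of 0.70 (Pearson r 0.95) over 73 genes. Between PBS and 60 min rho was 0.70, and between 30 and 60 min it was 0.30. Without RPS28, rho was 0.69, 0.69 and 0.27. Over all 9770 tested genes, rho was 0.72, 0.79 and 0.61. All these values come from 1 fit and 1 scaling, and genes are not independent replicates. By the sign of the estimate alone, whether or not it passed the test, 43 of the 73 members had negative values after PBS and at 30 min and positive values at 60 min. Another 15 had negative values at all 3 times and 15 at 30 min with positive values at both other times.

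EGF was compared with PBS within each siRNA to ask how these genes respond to the growth factor. None of the 73 members passed in edgeR at either time with either siRNA, and none passed in edgeR's exact test or in DESeq2. In these comparisons the test called few genes at all, at 30 min 0.614% of tested genes higher and 0% lower with control siRNA and 0.768% and 0.0102% with MSK2 siRNA. At 60 min the shares were 2.5% and 0.154% with control siRNA and 2.11% and 0.0512% with MSK2 siRNA. With control siRNA, the members' median log2 fold change was 0.13 at 30 min (72 positive values, 2 members higher at an unadjusted P under 0.05, against 279 of the 9770 genes) and −0.22 at 60 min (73 negative values, 26 lower at that limit, against 426 genes). With MSK2 siRNA, the median was −0.22 at 30 min (73 negative values, 38 lower at that limit, against 329 genes) and 0.00 at 60 min (37 positive and 36 negative values, 0 at that limit). The last median turned with single libraries of the 60 min siMSK2 group, to −0.14 without replicate 2 (72 negative values) and 0.11 without replicate 1 (68 positive values), and was −0.07 without PBS-siMSK2 replicate 4 and 0.07 without PBS-siMSK2 replicate 1. The median at 30 min with control siRNA was 0.08 without EGF replicate 3. The smallest adjusted P of a member was 0.962, 0.146, 0.232 and 0.828 in the 4 comparisons. At 60 min with control siRNA, 30 of 73 members had all EGF libraries below all PBS libraries, a separation found for 4.8% of all tested genes. The 2 EGF times share their PBS libraries, and the PBS groups are also those of the siRNA comparison.

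For RPLP0, the log2 fold changes with control siRNA were 0.08 at 30 min and −0.21 at 60 min, and with MSK2 siRNA −0.18 and −0.06. RPS6 had 0.07 and −0.26 with control siRNA and −0.22 and 0.02 with MSK2 siRNA. RPSA had 0.01 and −0.24 with control siRNA, its libraries of 60 min (89.5, 92.3 and 88.0 CPM) all being below those of PBS (103, 105, 103 and 115 CPM), and −0.19 and −0.03 with MSK2 siRNA. RPS27 had 0.18 and −0.36 with control siRNA and −0.33 and −0.04 with MSK2 siRNA, and RPL22 had 0.03 and −0.22 and then −0.23 and −0.06. RPL26, the tested member that varied most within groups (SD 0.39 on the log2 scale), had −0.51 at 60 min with control siRNA (SE 0.26, adjusted P = 0.479). Its levels of 14.0, 18.8 and 11.1 CPM overlapped with 18, 18.3, 21.5 and 26.5 CPM after PBS.

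**Figure D5:**
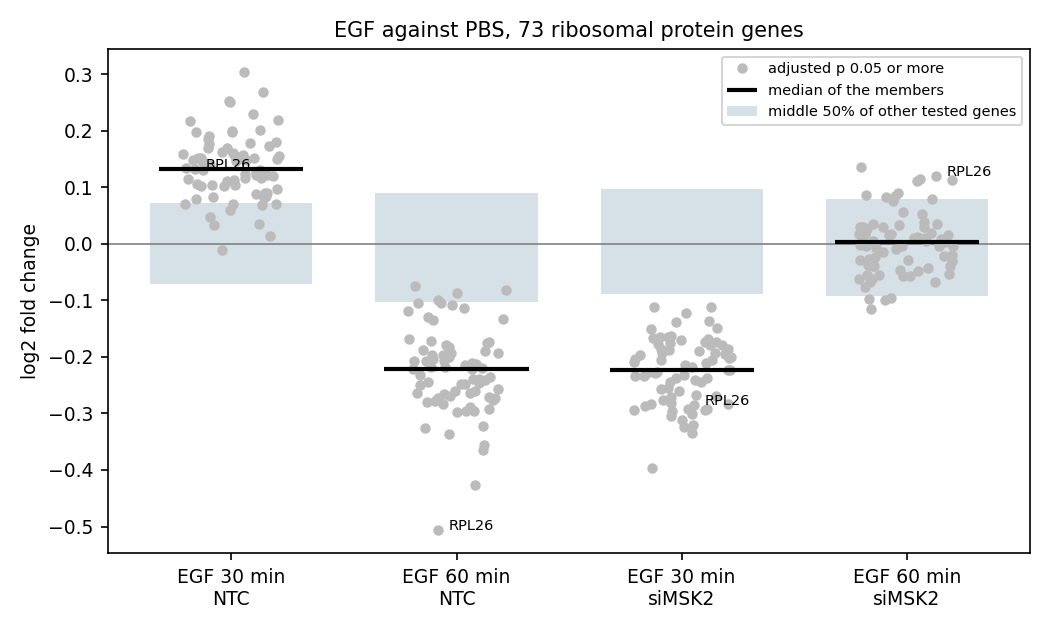
Log2 fold change of each of 73 ribosomal protein genes, EGF against PBS, at 30 and 60 min with control siRNA (NTC) and MSK2 siRNA, with a point per gene, the members' median as a black line and the middle 50% of the other tested genes as a blue band. No gene passed, and the medians are 0.13, −0.22, −0.22 and 0.00.

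The responses to EGF were then compared between the siRNAs. At 30 min the difference of the responses, MSK2 siRNA less control siRNA, was negative for all 73 members (median −0.37), and 52 of them had an unadjusted P under 0.05, as did 295 of all 9770 genes in that direction. No member passed after adjustment (smallest adjusted P = 0.713), and in this fit no gene passed, 0% of those tested. At 60 min the difference was positive for all 73 (median 0.23), with 1 member at an unadjusted P under 0.05, against 105 genes, and none passing. Without EGF60-siMSK2 replicate 2 this median was 0.09, with 9 negative values, and without replicate 1 it was 0.35. DESeq2 called no member in either. The effect of MSK2 siRNA at 60 min was also set against that at 30 min, a contrast added after the data were seen. It was positive for all 73 members (median 0.59), 71 of them had an unadjusted P under 0.05, against 601 of all genes in that direction, and none passed in edgeR (smallest adjusted P = 0.207), where 0.0102% of all genes passed. DESeq2 called 23 members, of 28 genes higher and 3 lower among the 2762 to which it gave an adjusted P. Without the filter on low counts edgeR called 45 members, of 98 genes higher and 71 lower among 48630. The difference between the siRNA effects at 30 and 60 min was thus called or not depending on the tool and the filter.

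Other genes of ribosome production were described from lists. Of 18 tested translation factors and other TOP mRNAs, 10 were lower with MSK2 siRNA at 30 min and none higher (median −0.23), where 15.2% of all tested genes were lower and 14.9% higher. HNRNPA1, an RNA-binding protein whose mRNA carries a TOP motif, fell by 0.87 on the log2 scale at 30 min (adjusted P = 6.68e-10), by 0.73 after PBS and by 0.53 at 60 min. RACK1, a scaffold protein of the small subunit, fell by 0.46 at 30 min and NPM1, a nucleolar chaperone of ribosome assembly, by 0.45. Of 8 host RNAs of snoRNAs, 6 fell at 30 min (median −0.47), GAS5 by 0.60 and SNHG8 by 0.63 among them. Of 26 genes of ribosome assembly and rRNA modification, 10 were lower at 30 min and none higher (median −0.20), including the rRNA methyltransferase FBL (−0.60), BYSL (−0.49) and NHP2 (−0.48). After PBS and at 60 min, the number lower was 4 and 1 of 18, 1 and 1 of 8, and 3 and 2 of 26 in these lists, beside 12.6% and 10.1% of all genes. The number higher was 1 and 1 of 18, 0 and 0 of 8, and 1 and 0 of 26, beside 12.2% and 9.37%.

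Of 17 regulators of TOP mRNA translation and mTORC1 signaling, 4 were higher and 2 lower at 30 min (median 0.12). The 2 lower were a share near that of all genes (15.2%), and 14.9% of all genes were higher. After PBS 2 were higher and 2 lower, beside 12.2% and 12.6% of all genes. At 60 min 2 were higher and 3 lower, beside 9.37% and 10.1%. The 2 lower at 30 min were MYC, a transcription factor of ribosome production, and EIF4EBP1, an inhibitor of cap-dependent translation. MYC was lower with MSK2 siRNA at all 3 times, with log2 fold changes of −1.11, −1.08 and −0.78. It had 51.0, 42.3, 40.3 and 60.6 CPM after PBS with control siRNA and 24.2, 20.5, 23.2 and 21.6 CPM with MSK2 siRNA. At 60 min of EGF it had 107, 107 and 108 CPM and 59.0, 70.8 and 57.2 CPM. EIF4EBP1 had −0.81, −1.01 and −0.79, while its relative EIF4EBP2 rose by 0.54 at 30 min and by 0.45 at 60 min. The lists share no members with the 77 genes.

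Within groups, the members moved together from library to library. Over the 22 libraries, the deviation of a member from its group means had a median correlation of 0.90 with the mean deviation of the other 72 tested members, and 57 of 73 were above 0.8. The lowest were RPL22 (0.31), RPL15 (0.37) and RPL3 (0.39), and the highest was RPS16 (0.98). Across members, this correlation had a Spearman rho of −0.28 with transcript length and 0.08 with mean CPM. The points share their libraries and scaling. The SD within groups was smallest for RPL15 (0.09 on the log2 scale). At 30 min with MSK2 siRNA, the members' median relative to the mean of PBS with control siRNA was −0.52, −0.36, −0.09 and −0.23 in the 4 libraries. With control siRNA at 30 min it was 0.06, 0.22, 0.27 and −0.04, so the lowest NTC and the highest siMSK2 library lay close together.

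Transcript length moved with the siRNA effects over all genes. At 30 min, tested genes outside the family with canonical transcripts up to 1000 bases had a median log2 fold change of −0.17 (516 genes, 25.8% lower), and those over 4000 bases 0.08 (4082 genes, 10.2% lower). At 60 min the medians were 0.13 and −0.02, and after PBS they were 0.06 and −0.01. With EGF against PBS, genes of up to 1000 bases outside the family had medians of 0.09 at 30 min and −0.10 at 60 min with control siRNA and −0.15 and −0.04 with MSK2 siRNA. The members of up to 1000 bases had a median of −0.45 at 30 min (40 genes, 37 lower), those from 1000 to 2000 bases −0.40 (16 of 16 lower), those from 2000 to 4000 bases −0.41 (12 of 13 lower) and those over 4000 bases −0.48 (4 of 4 lower). The members were lower at 30 min in each of these bins. Members of up to 1000 bases had medians of −0.07 after PBS, where other genes of that length had 0.06, and 0.17 at 60 min. The bins use the length of the annotated canonical transcript, and the length of the expressed mRNAs was not measured. The part of transcript length in the result was not tested. At 30 min, reads on no gene made up 3.41 to 6.07% of reads with control siRNA and 4.19 to 5.35% with MSK2 siRNA, and mitochondrial transcripts 1.46 to 2.07% and 1.54 to 2.07% of gene counts, both ranges overlapping. The mitochondrial share did differ by siRNA at the other times, with 1.45 to 1.95% against 2.04 to 2.85% after PBS and 1.16 to 1.59% against 1.82 to 1.95% at 60 min, and its part in those results was not tested. Members with a TOP start in the RefSeq table had a median of −0.44 at 30 min (44 genes, 40 lower), and the 15 with another start −0.43 (15 lower). The 14 with no start in the table had −0.45 (14 lower). This sorting used the annotated start base alone. RPS28 and RPL10A, whose runs of C and T begin after it, and RPL3, with a run of 4, therefore counted as another start. The part of the TOP motif in the result was not tested.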

How the data were processed

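RNA from 22 libraries of IMR90 cells was prepared by the authors with the SMART-Seq v4 and Nextera XT kits, which do not mark the strand. Reads were made with bcl2fastq 2.20.0.422, aligned to hg38 with STAR 2.7.9a and counted by HTSeq 0.13.5. The authors deposited raw counts per gene, without normalization. Which annotation release and strand setting HTSeq was given is not given in the sources used here, and counts of overlapping or nearly identical genes are therefore uncertain. The 5 summary lines of each file, 18.3 to 22.4% of reads, were left out. Counts on genes ranged from 7893209 to 22244216 per library, and replicates varied more than counting error.

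The test was edgeR's quasi-likelihood test (edgeR 4.0.16, R 4.3.3). A single model of 6 group means was fitted to all libraries, scaled by TMM, for the 9770 genes above 10 CPM in 2 or more libraries, and P values were adjusted over all 9770 by the Benjamini-Hochberg method, with 0.05 as the threshold. The step was tested on simulated counts. RPKM used the Ensembl canonical transcripts of GENCODE 44 on GRCh38, and sequences are from RefSeq.

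Members were named by rule: in each comparison up to 5 that rose most and up to 5 that fell most past the threshold, then RPLP0, RPS6, RPL22, RPS27 and RPSA throughout, the 3 highest and 3 lowest by RPKM and the 3 most variable within groups. Every paralog was named, except that some results under this rule are not reported here, and of each other list up to 3 genes with the smallest P in a comparison. RPL17, RPL39, RPS25, RPS2, RPL10, RPL4, RPL15 and RPS16 were named after their values were seen. The members and lists were chosen with earlier results of these data known.

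Alternatives were edgeR's exact test, DESeq2 1.42.0, its size factors, library sizes only, TMM without the members, other filters on low counts, only the compared groups, a replicate block and each library left out. Added after seeing the data was a fit of replicates 1 to 3. After PBS, same-numbered libraries of both siRNAs deviated together from their group means, with correlations over all genes of 0.143 to 0.500 in 4 pairs (0.698, 0.306, −0.159 and 0.268 over the members alone). This pairing comes from the data and not from the labels, and with a block for it the count of 8 members lower was the same.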

Additional observations from a re-analysis of the deposited data

Results flagged for a closer look

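Of 80 sets of 4 libraries (19 named members and the members' share of counts, over the 4 groups of that size), 3 held a library far from the other libraries of its group, and chance gives such a library in about 5% of sets. RPL3 was high in PBS-NTC replicate 4 at 971 CPM, with the next library at 820.3 CPM, and RPL3 was also lower with MSK2 siRNA after PBS when that library was left out. RPL22 was low in PBS-siMSK2 replicate 2 at 25.6 CPM, with the next at 33.5 CPM. RPS10 was low in PBS-siMSK2 replicate 4 at 0.385 CPM, below the limit of 10 CPM.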

How the results depend on the processing

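At 30 min (MSK2 against control siRNA) the members' median was negative in every alternative run, −0.53 to −0.37, and with the looser filters, which tested all 77 members, 76 were negative and 1 positive. The median after PBS ran from −0.13 to 0.01 and that at 60 min from 0.02 to 0.24. The number lower after PBS was 5 with only the compared groups, 4 with only replicates 1 to 3 and 4 to 10 when 1 library was left out. At 60 min, 6 were higher without the filter on low counts and with only the compared groups, against 3. With 1 library left out, 0 to 12 were higher and 1 to 4 lower. Without the filter, 2 members were lower in the difference of the responses at 30 min. For EGF at 30 min with MSK2 siRNA, leaving out 1 library gave 0 to 1 lower, the 1 without EGF30-siMSK2 replicate 3. In the difference of the siRNA effects between 60 and 30 min, DESeq2 called 23 higher among the 2762 genes to which it gave an adjusted P and edgeR called 45 higher without the filter on low counts, against 0. The cause was not tested. With the replicate block, 71 members were lower at 30 min and 3 were higher and 2 lower at 60 min, and it changed no other count by over 1.5 times. Of 25 calls of named members, none changed direction, and 36 of 440 refits lost a call. Over all genes, no comparison other than PBS had every correlation of same-numbered libraries over 0.1. Over the members alone, those at 60 min between the siRNAs were 0.232, 0.727 and 0.624. The 4 members under 10 CPM were tested with the looser filters alone, and 3 libraries per group at 60 min limit its precision.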

Other observations

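The mitochondrial ribosomal proteins, which are encoded in the nucleus but build a separate ribosome, were listed for comparison. Of 68 tested, 17 were lower with MSK2 siRNA at 30 min of EGF and none higher (median −0.14), where 15.2% of all tested genes were lower and 14.9% higher, MRPS9 with −0.72 and MRPL36 with −0.46 among them. After PBS 1 was lower and 4 were higher (median 0.00), and at 60 min 1 was lower and 6 were higher (median 0.05), with MRPS6 at 0.61. Those counts of higher genes are below the 12.2% and 9.37% of all genes. Of 12 tested genes of RNA polymerase I and its factors, 3 were lower and 1 was higher at 30 min (median −0.20). POLR1E fell by 0.62, POLR1D by 0.46, and UBTF, which binds the promoter of the rRNA genes, rose by 0.28. With EGF, no gene of these 2 lists passed at either time with either siRNA.

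TEK, the 1 tested endothelial marker, was lower with MSK2 siRNA in all 3 comparisons, with log2 fold changes of −1.78, −1.67 and −1.81. No tested epithelial marker passed between the siRNAs. Of 11 fibroblast markers, 5 were lower and 2 higher after PBS. At 30 min 4 were lower and 4 higher, and at 60 min 4 were lower and 2 higher. Among all tested genes, 12.6% were lower and 12.2% higher after PBS, 15.2% and 14.9% at 30 min, and 10.1% and 9.37% at 60 min. The part of these markers in the results was not tested.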
